A study of Saccharomyces cerevisiae with 9 samples.

Results

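Ribosome biogenesis factors are the proteins that make ribosomes without being part of the finished particle. The set described here held 58 genes of the 5449 yeast genes read by the array. The rule for membership reads names alone: the genes whose standard symbol is UTP, NOP, RRP, NOC or NSA followed by a number. The names gave 18 UTP, 17 NOP, 18 RRP, 3 NOC and 2 NSA genes. Processome genes whose standard symbol has another form, such as BUD21, are left to the lists of other genes. Each member had 1 probe set, none of them carried the suffix of a probe set shared with other sequences, and all 58 passed the filter on low signal that left 4359 genes for testing.

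The samples were 9 single-colour arrays of Saccharomyces cerevisiae, 1 per dose (0, 20 or 60 g/L of added succinic acid) from each of the strains NBRC1958, NBRC2018 and KF7. Succinic acid is an organic acid that yeast excretes and that acidifies its medium. All 3 strains were grown in YPD, a rich medium, at 35 °C and 200 rpm for 6 hours, so the controls at 0 g/L shared that warm culture with the treated cells. The labels give no genotype beyond the strain names. The values were linear intensities, called signal below, and array medians over the yeast genes lay between 294 and 311. With 1 array per strain and dose, a dose was replicated by the 3 strains and a strain by its 3 doses. The labels do not say whether cultures were separate, and the p-values measure the spread between these samples, which may be technical. In the additive fit of strain and dose, that is the spread left after both. It holds any differences between strains in their response to dose. With 1 array per strain and dose, these cannot be told apart from variation between arrays. In a bulk sample, fewer cells carrying a transcript and less transcript per cell cannot be told apart.

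Ribosome assembly starts in the nucleolus, where RNA polymerase I transcribes a long precursor RNA that holds the ribosomal RNAs of both subunits. The UTP proteins gather on the growing precursor with the U3 small nucleolar RNA as the small subunit processome, and small nucleolar RNPs built on NOP1, NOP56 and NOP58 guide the methylation of its riboses. Large subunit precursors are built by another set of NOP, RRP, NOC and NSA proteins, and the exosome, a ring of RRP proteins with a nuclease attached, trims the RNA. In budding yeast these genes are known as a co-regulated group that follows growth rate and nutrient signals, and their messengers are known to drop quickly under many stresses.

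The members were well above background on every array. Their signals ran from 106 to 4895, while the 95th percentile of probe sets for another organism lay between 14.7 and 15.9. Mean signals over the 9 arrays ran from 144 for NOP9 to 4406 for NOP58, although the brightness of different probe sets does not rank their transcripts. The median member changed little over the series. Its highest array was 1.74 times its lowest, against 1.70 for all genes tested. The widest range was 2.50-fold for NOP13, a nucleolar RNA-binding protein, and the narrowest was 1.24-fold for NOP58, a core protein of the methylation-guiding snoRNPs. In 45 of the 58 members the ratio stayed under 2-fold, as it did in 70.7% of all genes tested.

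The members varied mostly together over the arrays, and the median course over the doses is given here strain by strain. Each gene's log2(signal + 16) was set against its own mean over the 9 arrays. In NBRC1958 the members' median was lowest without acid, at -0.32, and stood at -0.10 at 20 g/L and -0.08 at 60 g/L. In NBRC2018 the order was the opposite, with 0.22, 0.18 and 0.04. In KF7 it was -0.08 without acid, 0.30 at 20 g/L and -0.14 at 60 g/L. The median of all genes stayed between -0.07 and 0.06 on all 9 arrays. These are descriptions of single arrays. Whether the shapes differ between strains was not tested, since the test of slopes given further on compares straight lines.

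**Figure D1:**
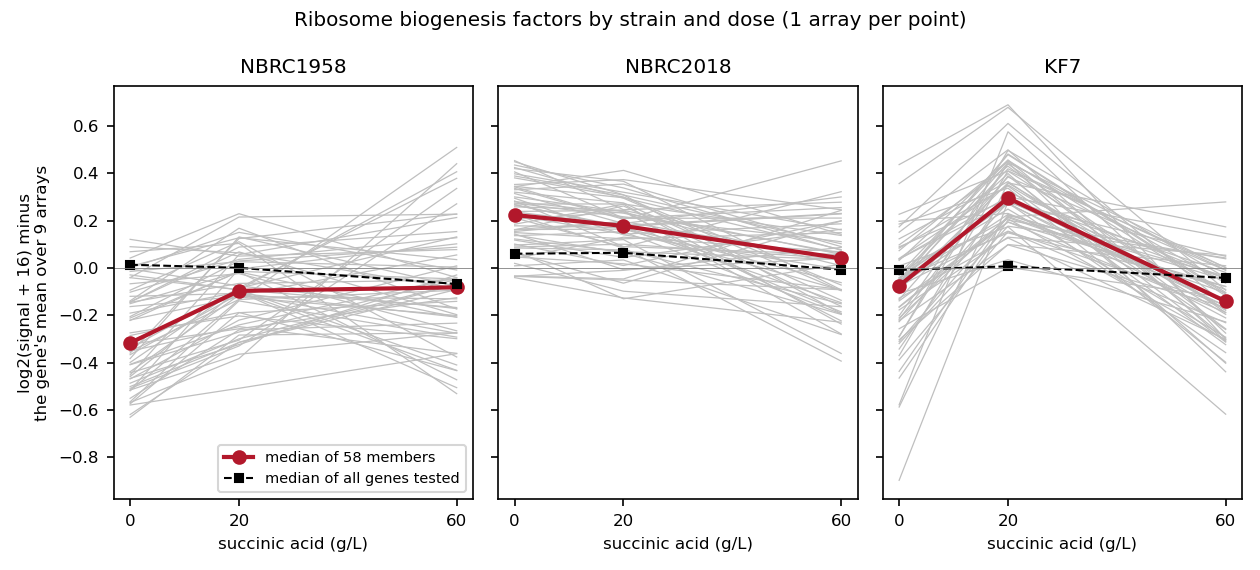
Course of 58 ribosome biogenesis factors over succinic acid dose (horizontal axis, g/L) in each strain, with 1 array per point; the vertical axis is log2(signal + 16) minus the gene's mean over the 9 arrays. Grey lines are single members, red points their median and black squares the median of the 4359 genes tested; the red median peaks at 20 g/L in KF7 (0.30) and is lowest at 0 g/L in NBRC1958 (-0.32).

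The array of KF7 at 20 g/L stood out. Within KF7, 57 of the 58 members had their highest signal at 20 g/L, against 36.2% of all genes tested. The exception was UTP30, whose highest KF7 signal was at 60 g/L. The KF7 array at 20 g/L was also the highest of all 9 for 33 members, and for 432 of the 4359 genes tested. Against the KF7 array at 0 g/L, all 58 members were higher at 20 g/L, by 0.03 to 1.17 on the log2 scale with a median of 0.37, where 53.9% of all genes were higher. From 20 to 60 g/L in KF7, 1 of the 58 was higher, with a median of -0.43, against 41.4% of all genes. With 1 array at each point these counts have no replicate check, and whether they belong to that dose or to that array was not tested.

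The other strains gave different orders. In NBRC1958, 38 members were lowest at 0 g/L, against 30.1% of all genes, and 30 were highest at 60 g/L, against 35.2%. The NBRC1958 array at 0 g/L was the lowest of all 9 arrays for 26 members, and for 624 of the 4359 genes tested. In NBRC2018, 36 members were highest at 0 g/L, against 32.7% of all genes, and 40 were lowest at 60 g/L, against 51.0%. Counts by role in NBRC1958 rest on few genes and 1 array per dose, and a difference between roles was not tested. Among genes of the processome complexes, 5 of the 6 of UTP-A, all 4 of UTP-B and both of UTP-C were lowest without acid there. So were 11 of the 18 large subunit factors, 6 of the 7 exosome genes and 1 of the 2 genes serving both subunits. Of the 14 other small subunit factors 7 were lowest at 0 g/L and 7 at 60 g/L. Of the 5 snoRNP proteins 2 were highest and 2 lowest without acid.

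What the higher dose did across the 3 strains is read from the arrays at 60 and 0 g/L. In the additive fit of strain and dose with limma, 3 of the 58 members passed an adjusted p of 0.05, all of them lower at 60 g/L, where 22.8% of the genes tested passed, 8.67% higher and 14.2% lower. The 3 were RRP45, UTP7 and RRP17, and they belong to different machines: the exosome, the small subunit processome and the large subunit pathway. The members' median log2 difference was -0.03, against -0.05 for all genes, with 26 members above 0 and 32 below. The median size of a difference, whatever its sign, was 0.16 in the members and 0.22 in all genes. The standard error was larger in the members, with a median of 0.132 against 0.112. The count was 0 without strain as a block, and it changed with single arrays. It was 0 without the 0 g/L array of NBRC1958 and 6 without its 60 g/L array. It was 5 without the 0 g/L array of NBRC2018, 4 of them higher and 1 lower, and 5 without the 20 g/L array of KF7, and 1 without the 60 g/L array of NBRC2018, the 0 g/L array of KF7 or its 60 g/L array.

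RRP45 (YDR280W), a core subunit of the exosome ring, showed the largest fall. Its signal in NBRC1958, NBRC2018 and KF7 was 867, 926 and 941 at 0 g/L, then 889, 927 and 1048 at 20 g/L, then 567, 773 and 623 at 60 g/L. All 3 arrays at 60 g/L lay below all 6 others. The fitted log2 difference between 60 and 0 g/L was -0.48 (SE 0.111, limma adjusted p = 0.0204). The call was lost without the 0 or the 60 g/L array of NBRC1958 or of KF7, and over all 23 alternatives the adjusted p ran from 0.0164 to 0.160. The other exosome members passed in neither direction: RRP46, RRP6 and RRP43 lay between -0.09 and -0.06, and RRP40, RRP4 and RRP42 between 0.06 and 0.28.

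UTP7 (YER082C) is a WD-repeat protein of the small subunit processome. Its signal was 414, 501 and 483 at 0 g/L in NBRC1958, NBRC2018 and KF7, then 399, 453 and 659 at 20 g/L, then 317, 321 and 380.4 at 60 g/L. The 60 g/L arrays again lay below all others. The fall was -0.44 on the log2 scale (SE 0.126, limma adjusted p = 0.0413). It passed without the 0 or the 20 g/L array of KF7 and was lost without any one of the other 7, with an adjusted p from 0.0243 to 0.227 over all 23 alternatives.

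RRP17 (YDR412W) is an exonuclease that trims large subunit precursor RNA. Its signal was 239, 295 and 356 at 0 g/L, then 255, 299.9 and 449 at 20 g/L, then 189, 210.4 and 256 at 60 g/L, in the same order of strains. It fell in each strain, but the KF7 array at 60 g/L lay above the NBRC1958 array at 0 g/L, so the doses overlapped. The log2 difference was -0.41 (SE 0.10, limma adjusted p = 0.0252). The call was lost without the 0 g/L array of any strain and without the 60 g/L array of NBRC2018 or KF7, with an adjusted p from 0.0221 to 0.337 over 22 alternatives.

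**Figure D2:**
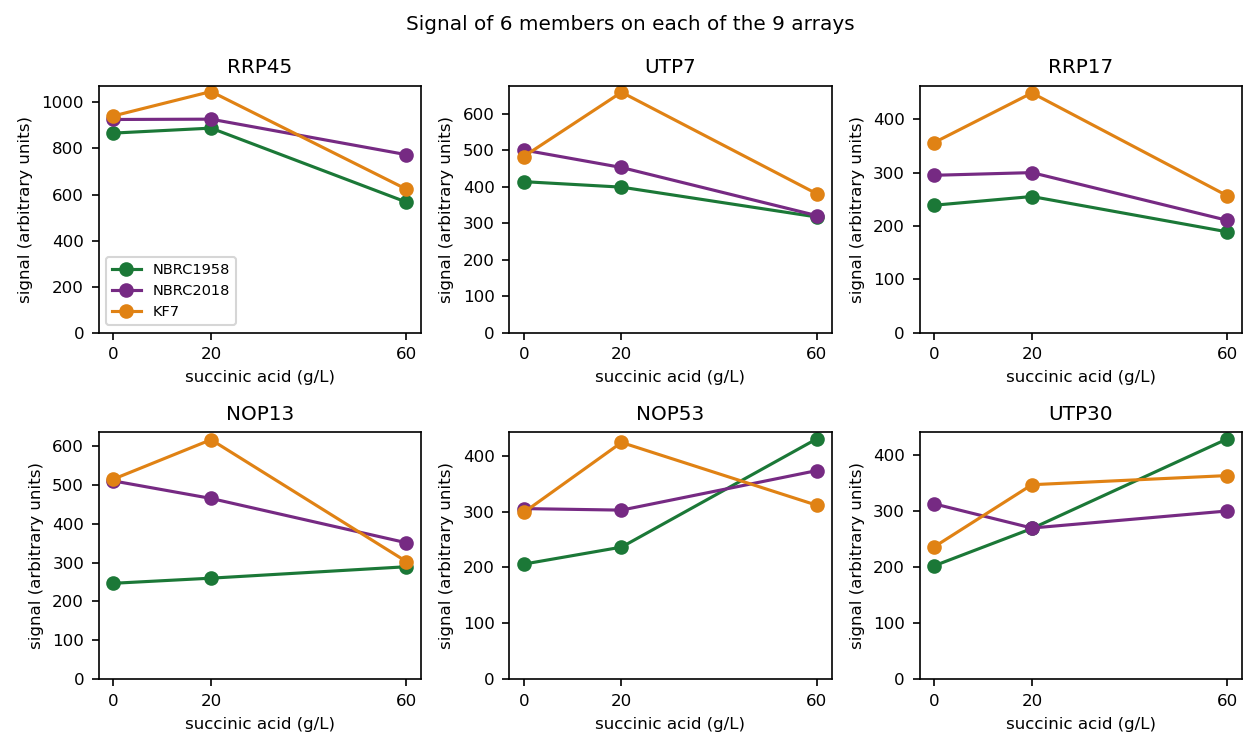
Signal (arbitrary units, vertical axis from 0) of 6 members against succinic acid dose (g/L) on each of the 9 arrays, with lines joining the arrays of a strain. RRP45, UTP7 and RRP17 are lowest at 60 g/L in every strain; NOP13 is lowest in NBRC1958 at each dose; NOP53 and UTP30 are highest in the NBRC1958 array at 60 g/L.

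The other members by role did not pass at 60 against 0 g/L. The UTP-A complex, which binds the precursor first and is tied to its transcription, had 6 members with a median log2 difference of 0.15 and 4 of them above 0. Its UTP9 (YHR196W) had the highest value of all 58, at 0.59 (limma adjusted p = 0.0616), with 409.96, 596 and 374 at 0 g/L, then 533, 544 and 735 at 20 g/L, then 759.8, 656 and 644 at 60 g/L in NBRC1958, NBRC2018 and KF7. Its 60 g/L arrays all lay above its 0 g/L arrays. UTP10, the brightest probe set of the complex, read 429, 717 and 549 at 0 g/L, then 488, 657 and 717, then 747, 775 and 572 at 60 g/L, with overlap, and its difference was 0.32 (limma adjusted p = 0.213). All 4 members of UTP-B were above 0, with a median of 0.17, as were both members of UTP-C, RRP7 and UTP22, with a median of 0.06. UTP21, the brightest of UTP-B, read 337, 537 and 434 at 0 g/L, then 373, 515 and 556, then 438, 534 and 408 at 60 g/L. From 0 to 60 g/L it was higher in 1 strain and lower in the other 2 and its 0.09 is no common direction. RRP7 read 549.5, 608 and 547 at 0 g/L, then 607, 648 and 606, then 647, 620.5 and 502 at 60 g/L, also higher in NBRC1958 and lower in KF7.

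The 14 other small subunit factors had a median of -0.07, with 6 above 0. They ran from UTP7 to UTP30, at 0.52 (limma adjusted p = 0.0819). UTP23, the brightest of them, read 840.2, 1115 and 806 at 0 g/L, then 975, 1103 and 1266, then 809, 764 and 814 at 60 g/L, with most of its difference of -0.19 in NBRC2018. The 5 snoRNP proteins had a median of -0.11. NOP58 among them read 4677, 4660.05 and 4166 at 0 g/L, then 4593, 4634 and 4895, then 4138, 3955 and 3938 at 60 g/L. Its ranges at 0 and 60 g/L did not overlap, yet the difference was -0.16 (limma adjusted p = 0.210). NOP10, of the pseudouridine-guiding box H/ACA RNPs, stood at the other end of the 5 with 0.30. RRP5 and RRP12, which serve both subunits, were at -0.13 and 0.05. RRP5, which holds the precursor on both sides of the first separating cleavage, read 965, 1132 and 885 at 0 g/L, then 917, 1071 and 1058, then 858, 1104 and 782 at 60 g/L, lower than at 0 g/L in each strain with overlapping ranges. The 18 large subunit factors had a median of -0.10, with 4 above 0, and spread from -0.42 for RRP8, a methyltransferase of ribosomal RNA, to 0.45 for NOP53, which brings the exosome to large subunit precursors. NSA2, the brightest of the 18, read 925, 1521 and 1125 at 0 g/L, then 1072, 1440.2 and 1522, then 849, 1288 and 867 at 60 g/L, with a difference of -0.24 (limma adjusted p = 0.200).

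Groups of arrays were fully apart in 7 members at 60 against 0 g/L. NOP53 and UTP9 were higher, and RRP45, RRP15, UTP7, NOP14 and NOP58 were lower. Among all genes tested 7.36% were apart and higher, and 15.8% apart and lower.

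**Figure D3:**
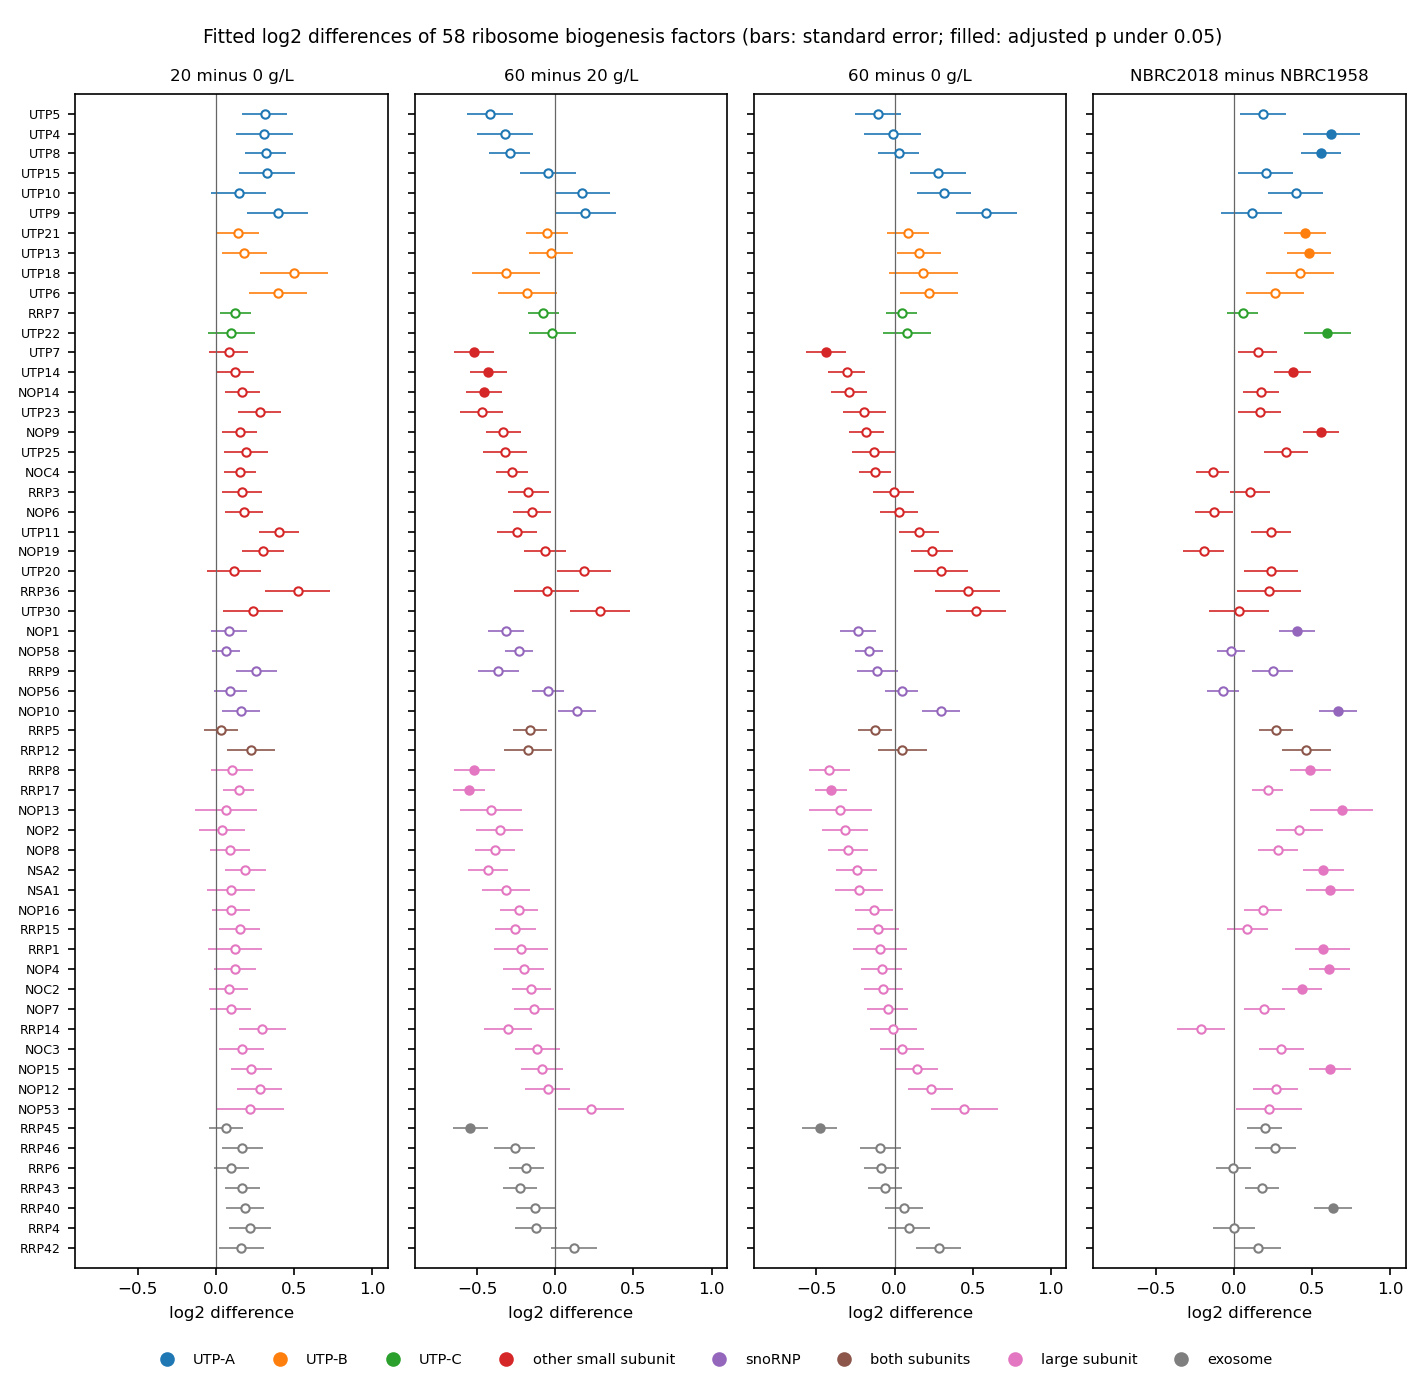
Fitted log2 differences (horizontal axis) of the 58 members, by role in colour, for 20 minus 0, 60 minus 20 and 60 minus 0 g/L and for NBRC2018 minus NBRC1958; bars are standard errors and filled points have an adjusted p under 0.05. All 58 points lie right of 0 at 20 minus 0 g/L with none filled, 3 are filled at 60 minus 0 g/L, and 18 are filled in the strain comparison, all to the right.

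At 20 against 0 g/L no member passed, and 0.0229% of the genes tested did, which was 1 gene. At an unadjusted p under 0.05 there were 3 members and 158 of all genes. All 58 fitted differences were above 0, from 0.03 for RRP5 to 0.52 for RRP36, with a median of 0.16, where 53.6% of all genes were above 0 with a median of 0.01. The KF7 array at 20 g/L decided much of this count: without it 38 of 58 were above 0. Within single strains the count was 58 in KF7, 53 in NBRC1958, where 48.5% of all genes were above 0, and 16 in NBRC2018, where 51.0% were. The 3 comparisons between doses share arrays, and so do the 3 between strains, so their values stand side by side here and none supports another.

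The 3 members with the smallest p at 20 g/L were all of the small subunit processome. RRP36 (YOR287C), needed for early cleavages of the precursor, read 175, 278 and 115 at 0 g/L in NBRC1958, NBRC2018 and KF7, then 251, 260.3 and 281 at 20 g/L, then 271, 271 and 221 at 60 g/L. The 20 g/L arrays overlapped the NBRC2018 array without acid, and the difference was 0.52 (SE 0.208, limma adjusted p = 0.953). UTP11 (YKL099C) read 220.1, 328 and 227 at 0 g/L, then 321, 337 and 368, then 276, 299 and 283 at 60 g/L. Of the arrays without acid, only that of NBRC2018, at 328, came into the 20 g/L range, and the difference was 0.40 (SE 0.128, limma adjusted p = 0.953). UTP8 (YGR128C), of the UTP-A complex, read 125, 235 and 185 at 0 g/L, then 173, 235 and 274, then 154, 213 and 177 at 60 g/L. Its 0 and 20 g/L ranges overlapped, and the difference was 0.32 (SE 0.13, limma adjusted p = 0.953). NOC4 was the 1 member whose 20 g/L arrays all lay above its 0 g/L arrays, against 1.65% of all genes, and none was apart the other way, against 2.09%, where 3.74% of all genes were apart in either direction.

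From 20 to 60 g/L, 6 members passed the test and all 6 fell. Among all genes 15.9% passed, 5.78% higher and 10.2% lower. The 6 were RRP17 (-0.55, limma adjusted p = 0.0150), RRP45 (-0.54, 0.0202), UTP7 (-0.52, 0.0316), RRP8 (-0.52, 0.0365), NOP14 (-0.46, 0.0352) and UTP14 (-0.43, 0.0452). Of the alternatives tried, RRP17 passed in 15 of 22, RRP45 in 15 of 23 and UTP7 in 11 of 23. NOP14 is a scaffold of the small subunit precursor, and UTP14 is known to activate a helicase there. In total 51 of the 58 were below 0, with a median of -0.21, where 59.5% of all genes were below 0 with a median of -0.06. The 20 and 60 g/L arrays were fully apart in 13 members, all lower at 60 g/L, which is 22.4% of the members against 15.3% of all genes. None was apart and higher, against 6.88%. The count of 6 was 0 without strain as a block, and 0 without the 20 g/L array of NBRC1958 or of KF7. It was 2 without the 0 g/L array of NBRC1958, the 20 g/L array of NBRC2018, or the 60 g/L array of NBRC2018 or KF7.

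Among the members, as among all genes, the largest share past the test came between the NBRC strains. Comparisons between strains, here and further on, are of probe set signal. Whether the strains differ in sequence or copy number at these probe sets was not tested. A difference in signal between strains is therefore not shown to be one in transcript level. Between NBRC2018 and NBRC1958, 18 members passed the test, which is 31% against 27.9% of the genes tested. All 18 were higher in NBRC2018, where 16.3% of all genes passed as higher and 11.5% as lower. The members' median was 0.26 against 0.06 for all genes, and 50 of the 58 were above 0 against 56.8%. In 24 members the 3 arrays of NBRC2018 all lay above the 3 of NBRC1958, which is 41.4% against 21.4% of all genes, and none was apart the other way. The 18 came from 7 of the 8 roles: 8 large subunit factors (NOP13, NSA1, NOP15, NOP4, NSA2, RRP1, RRP8 and NOC2), 2 each of UTP-A (UTP4, UTP8), UTP-B (UTP13, UTP21), the other small subunit factors (NOP9, UTP14) and the snoRNPs (NOP10, NOP1), and UTP22 and RRP40 from UTP-C and the exosome. The count rested on the NBRC1958 array at 0 g/L more than on any other array: with it left out 1 member passed. With the 0 g/L array of NBRC2018 or the 20 g/L array of NBRC1958 left out it was 2. It was 4 and 9 with the 60 and the 20 g/L array of NBRC2018 left out, and 10 with the 0 g/L array of KF7 left out.

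NOP13 (YNL175C) had the largest strain difference in signal among the members. It read 247, 260.1 and 289.5 at 0, 20 and 60 g/L in NBRC1958, 511, 466 and 351 in NBRC2018, and 515, 617 and 303 in KF7. Every array of NBRC1958 lay below every array of the other strains. The difference was 0.69 for NBRC2018 (limma adjusted p = 0.0374) and 0.76 for KF7 (limma adjusted p = 0.0361), each with an SE of 0.20. The gap was narrowest at 60 g/L, where KF7 stood at 303 against 289.5. Of 22 alternatives, the higher signal in NBRC2018 passed in 12 and that in KF7 in 13.

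NOP10 (YHR072W-A) read 1098, 1361 and 1615 over the doses in NBRC1958, 2144, 1957 and 2325 in NBRC2018, and 1498, 1857 and 1760.1 in KF7. The ranges of the NBRC strains were apart, and NBRC2018 was higher by 0.67 (SE 0.121, limma adjusted p = 0.00878). RRP40 (YOL142W), an RNA-binding cap subunit of the exosome, read 323, 415 and 417 in NBRC1958, 649, 628 and 537 in NBRC2018, and 522, 629 and 558 in KF7. NBRC1958 was lowest at every dose, by 0.64 against NBRC2018 (limma adjusted p = 0.0107) and 0.55 against KF7 (limma adjusted p = 0.0195). NOP1, the methyltransferase known in other species as fibrillarin, read 1618, 1937 and 1724 in NBRC1958 and 2614, 2533 and 1901 in NBRC2018. The difference was 0.40 (SE 0.115, limma adjusted p = 0.0353), with the NBRC2018 array at 60 g/L within the range of NBRC1958. Of 22 alternatives, the NBRC2018 call of NOP10 passed in 20 and that of RRP40 in 19, and the KF7 call of RRP40 passed in 14.

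Between KF7 and NBRC1958, 4 members passed the test as higher in KF7 and none as lower. That is 6.9%, where 19.1% of all genes passed, 9.45% higher and 9.66% lower. The 4 were NOP13, RRP17, RRP40 and NSA1, the last at 0.54 (limma adjusted p = 0.0450). RRP17 was also the 1 member that passed between KF7 and NBRC2018, where 16.4% of all genes did, 7.13% higher and 9.29% lower. KF7 stood above NBRC1958 in it by 0.58 (limma adjusted p = 0.00870) and above NBRC2018 by 0.36 (limma adjusted p = 0.0455), and of 21 alternatives these passed in 17 and 8. Over all 58, the median difference of KF7 was -0.09 against NBRC2018 and 0.17 against NBRC1958. Members above 0 numbered 13 against NBRC2018, with 45 below, and 42 against NBRC1958, with 16 below. Among all genes 41.8% and 50.4% were above 0. The 4 calls against NBRC1958 became 14 once its 60 g/L array was left out and 0 once its 20 g/L array was. They became 1 with its 0 g/L array, or the 0 or the 20 g/L array of KF7, left out, and 2 with the 20 or the 60 g/L array of NBRC2018 left out. The 1 call against NBRC2018 was lost with any one of 7 arrays left out. Leaving out the 20 g/L array of KF7 made it 2, and leaving out the 60 g/L array of NBRC1958 made it 3.

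**Figure D4:**
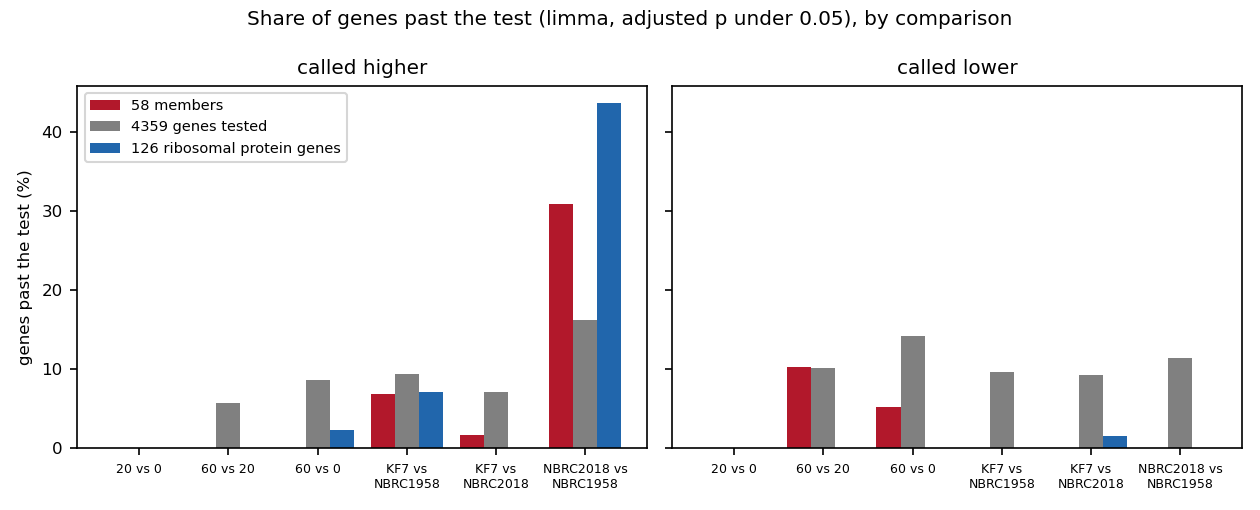
Share of genes past the test (%, vertical axis from 0) by comparison, called higher on the left and lower on the right, for 58 members (red), 4359 genes tested (grey) and 126 ribosomal protein genes (blue). The red bar reaches its tallest point in NBRC2018 against NBRC1958, called higher, where 18 of 58 members passed against 16.3% of all genes; at 60 against 0 g/L the red bars are at 0 of 58 higher and 3 of 58 lower.

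A straight line on dose in each strain gave 4 members with a slope past the test in NBRC1958, all 4 rising, where 14.8% of all genes passed, 6.47% rising and 8.35% falling. None passed in KF7, where 0.895% of all genes did (0.734% rising, 0.161% falling), or in NBRC2018, where 0.528% did (0.298% rising, 0.229% falling). At an unadjusted p under 0.05 there were 5 members in KF7, which is 8.62% against 19.6% of all genes, and 4 in NBRC2018, which is 6.90% against 21.4%. In KF7, 2 passed without its 0 g/L array and 1 without its 20 g/L array. The 4 in NBRC1958 were NOP53, UTP30, UTP20 and RRP42, with each slope written as the log2 change from 0 to 60 g/L on the fitted line. NOP53 (YPL146C) read 206, 236 and 431 over the doses in NBRC1958, 305, 303 and 374 in NBRC2018, and 299, 424 and 311 in KF7. Its NBRC1958 array at 60 g/L was its highest and the one at 0 g/L its lowest, with a slope of 1.04 (SE 0.251, limma adjusted p = 0.0417).

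UTP30 (YKR060W) carries a domain like that of a large subunit ribosomal protein although it sits in small subunit precursors. It read 202, 269 and 428 in NBRC1958, 312, 269 and 299.8 in NBRC2018, and 236, 347 and 363 in KF7. The NBRC1958 slope was 1.02 (SE 0.209, limma adjusted p = 0.0303). UTP20 (YBL004W), a very long scaffold protein of the processome, read 362, 399.7 and 632 in NBRC1958 against 535, 501 and 573 in NBRC2018 and 472, 585 and 479.7 in KF7, with a slope of 0.805 in NBRC1958 (limma adjusted p = 0.0419). RRP42 (YDL111C), of the exosome ring, read 388, 466 and 648 in NBRC1958, between 540.5 and 551 in NBRC2018, and 412, 496 and 453 in KF7, with a slope of 0.71 in NBRC1958 (limma adjusted p = 0.0357). In each of the 4 the NBRC1958 array at 60 g/L was the highest of the 9. The count of 4 was 0 without any one array of NBRC1958 or NBRC2018, and 7 without any one array of KF7.

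Whether slopes differed between strains was tested with a moderated F test. No member passed, and neither did any of the genes tested, so the share called was 0%. At an unadjusted p under 0.05 there were 3 members and 421 of all genes. The 4 smallest p among the members belonged to the same UTP30, RRP42, UTP20 and NOP53, with adjusted p from 0.507 to 0.515. A slope past the test in NBRC1958 is therefore not shown to differ from the slopes of the other strains.

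Across the 9 arrays, the members correlated with each other, with a median pairwise Pearson r of 0.56 and 92.9% of pairs above 0, where the median over pairs of all genes was 0.03. These points share arrays, strains and normalization. The median pairwise r was 0.67 for other small subunit factors, 0.62 for other large subunit factors and 0.84 for cytosolic ribosomal proteins. It was 0.14 for RNA polymerase I and its initiation factors. These lists are described further on. Correlation within a set is therefore not particular to the members. Among the members, UTP4, UTP8 and RRP12 came closest to the median course of the other members, each at r = 0.96. UTP4 (YDR324C) read 206, 274 and 284 over the doses in NBRC1958, 406, 412 and 376 in NBRC2018, and 297, 434 and 228 in KF7, so it held the whole pattern: a low start in NBRC1958, a high level in NBRC2018, and a peak at 20 g/L in KF7. NOP56 and NOP19 followed it least, at r = 0.06 and 0.12. NOP56, the partner of NOP58, was highest in NBRC1958 without acid, at 2212, and lowest in KF7 without acid, at 1739.5.

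Other genes of ribosome synthesis, from lists chosen by function, gave the wider setting. Of 42 other small subunit factors tested, 1 passed the test as higher and 1 as lower at 60 against 0 g/L. Among all genes 8.67% passed as higher and 14.2% as lower. The median of the 42 was -0.06, with 18 of them above 0. BUD21 rose by 0.65 (limma adjusted p = 0.0374) and HAS1, a helicase used in both subunits, was at -0.45 (limma adjusted p = 0.0453). Of 56 other large subunit factors, 2 passed as higher and 5 as lower, with a median of -0.10 and 20 of them above 0. MAK16 and RSA3, both early in large subunit assembly, were at -0.67 and -0.61, while SDO1, which prepares the new large subunit for translation, rose by 0.52 and REA1, the giant ATPase that strips factors from it, by 0.37. The rise of SDO1 was 1.01 in NBRC1958 and 0.27 in each of NBRC2018 and KF7, and its 0 and 60 g/L arrays overlapped. None of 9 other snoRNP genes passed, and of 10 other exosome and TRAMP genes only MTR3, another ring subunit, did, at -0.51. Over the alternatives, BUD21 passed in 15 of 23, HAS1 in 8, SDO1 in 10, REA1 in 13 and MTR3 in 15, and MAK16 and RSA3 in 20 and 18 of 22. All of these lists were mostly above 0 at 20 against 0 g/L, with 41 of 42 small subunit and 55 of 56 large subunit factors, and none of their genes passed there. They also held the peak of KF7 at 20 g/L, which was the highest KF7 dose for 40 of the 42, 54 of the 56, all 9 snoRNP genes and all 10 exosome and TRAMP genes, so that peak is not particular to the 58 members. Between NBRC2018 and NBRC1958, 18 of the 42 and 22 of the 56 passed the test as higher and 1 of each as lower. Among all genes 16.3% passed as higher and 11.5% as lower. The difference was above 0 in 38 of the 42 and 52 of the 56, against 56.8% of all genes.

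RNA polymerase I and its initiation factors held calls in both directions, as did all genes. Of 13 tested at 60 against 0 g/L, 2 passed the test as higher and 4 as lower. That is 15.4% and 30.8%, against 8.67% and 14.2% of all genes. In KF7 9 of the 13 were highest at 20 g/L, which is 69.2% against 36.2% of all genes. RPA14, a subunit of the enzyme, rose by 0.91 and RRN3, which carries the enzyme to the promoter, by 0.59. RPA43, the subunit that RRN3 binds, was at -0.75 and RRN10 at -0.39. RPA14 passed in 21 of 23 alternatives, and RPA43, RRN3 and RRN10 in 20, 12 and 9 of 22. Their median pairwise r over the 9 arrays was 0.14.

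Genes for the proteins of the finished ribosome were counted the same way. Of 126 cytosolic ribosomal protein genes tested, 3 passed the test as higher and none as lower at 60 against 0 g/L. Among all genes 8.67% passed as higher and 14.2% as lower. The fitted difference was above 0 in 108 of the 126, against 43.2% of all genes, with a median of 0.13 against -0.05. Between NBRC2018 and NBRC1958 55 passed the test as higher in NBRC2018, which is 43.7% against 16.3% of all genes. The difference was above 0 in 122 of the 126, against 56.8% of all genes. Many of these genes come in near-identical pairs that an array may not separate. In KF7 59 of the 126 were highest at 20 g/L, which is 46.8% against 36.2% of all genes and 57 of the 58 members, and the difference from the members was not tested. In NBRC1958, 93 of the 126 were highest at 60 g/L, which is 73.8% against 35.2% of all genes. The NBRC1958 array at 0 g/L was the lowest of all 9 for 116 of the 126. It was so too for 25 of the 42 other small subunit and 24 of the 56 other large subunit factors. That low start is therefore not particular to the 58 members. Their centred medians were -0.33, -0.12 and -0.01 over the doses in NBRC1958, 0.13, 0.10 and 0.18 in NBRC2018, and -0.01, 0.04 and 0.02 in KF7.

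Of 14 regulators of ribosome genes, 11 passed the signal filter. At 60 against 0 g/L, 3 of them passed the test as higher and 1 as lower. That is 27.3% and 9.09%, against 8.67% and 14.2% of all genes. LST8 (YNL006W), a subunit of both TOR kinase complexes, read 607, 372 and 356 at 0 g/L in NBRC1958, NBRC2018 and KF7, then 858, 405 and 497 at 20 g/L, then 2408, 1431 and 1344 at 60 g/L. The 60 g/L arrays all lay above the rest, and the rise was 1.91 on the log2 scale (SE 0.105, limma adjusted p = 0.000132). It passed in all 23 alternatives, with an adjusted p from 8.4e-05 to 0.0434. TOR2, a kinase of these complexes, rose by 0.30 (limma adjusted p = 0.0400), and SFP1, an activator of ribosome genes, by 0.46 (limma adjusted p = 0.0434). The rise of SFP1 was 0.71 in NBRC1958, 0.11 in NBRC2018 and 0.57 in KF7, and its 0 and 60 g/L arrays overlapped. STB3, which is known to bind promoters of ribosome biogenesis genes and repress them, was at -0.50 (limma adjusted p = 0.00962) and read 242, 272 and 262 at 0 g/L against 169, 196 and 171 at 60 g/L. TOR2 passed in 9 of 23 alternatives, SFP1 in 10 of 22 and STB3 in 18 of 22. The others did not pass: SCH9 was at -0.18, DOT6 at -0.35, IFH1 at 0.25, TOR1 at 0.205, RAP1 at 0.12, KOG1 at 0.10 and TCO89 at 0.09. These are transcript levels, and activity of the kinases was not measured here.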

How the data were processed

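The deposited values are intensities on a linear scale that the authors had normalized and summarized per probe set. The scanner, summarization, background correction and normalization are not given in the sources used here. Array medians were nearly equal, so this scaling was kept. Of 10928 probe sets, the 2016 probe annotation paired 5498 with 1 yeast gene (5449 genes), 1746 with genes of another organism and 3684 with neither. The probe set of highest mean was taken per gene. Values were analysed as log2(intensity + 16), and the 1090 genes in the lowest 20% (signal under 118) were left out.

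Linear models were fitted to the 4359 remaining genes with limma 3.58.1 in R 4.3.3 (lmFit, eBayes): additive strain and dose (4 residual degrees of freedom), and a line on dose per strain (3). P-values were adjusted by Benjamini-Hochberg over all 4359 genes, with a threshold of 0.05. The fits were tested on simulated data. Strain is the replicate block of the dose comparisons, since the labels give the same strain at each dose; deviations of arrays of 1 strain from the dose means correlated at 0.59 to 0.87.

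The members, their roles and the lists were chosen with earlier results of these data known. Members described on every array were, at 60 against 0 g/L, up to 6 of the largest past the test in each direction. For other comparisons they were up to 3 (slopes 2), or the 3 smallest p where none passed, for the slope difference the 4 smallest p, and the brightest member of each role; UTP4, UTP9, NOP1 and NOP56 were added after their values were seen. Of the lists, up to 2 genes each way and all regulators are named. Promoter sequences were not used here. The alternatives tried were the offset, the filter, the normalization, the probe set rule, the block, single arrays and whole strains or doses left out; the number of arrays limits the precision.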

Additional observations from a re-analysis of the deposited data

How the results depend on the processing

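Counts of members past the test depended on the settings. Without the replicate block for strain, which the labels pair across doses, the 3 members at 60 against 0 g/L and the 6 at 60 against 20 g/L both became 0, and on only the 6 arrays compared they became 0 and 1. Leaving out strain KF7 gave 1 and 0, and leaving out NBRC1958 gave 0 and 0. Leaving out NBRC2018 gave 0 at 60 against 20 g/L, and median centring gave 3 there. For NBRC2018 against NBRC1958 the 18 became 10 with median centring, 5 with no dose term, and 0 without the 0 g/L dose or without the 20 g/L dose. The 4 of KF7 against NBRC1958 became 0 with no dose term or without the 0 or 20 g/L dose, and 17 without the 60 g/L dose. The 1 of KF7 against NBRC2018 became 0 with an offset of 64, with the lowest 50% of genes left out, with no dose term and without any 1 dose. With dose as a rank the 4 slopes in NBRC1958 became 0. Fits on fewer arrays have fewer degrees of freedom; the cause of the other changes was not tested. Leaving out 1 array at a time gave 0 to 6 members at 60 against 0 g/L, 0 to 0 at 20 against 0 g/L and 0 to 7 at 60 against 20 g/L. It gave 0 to 14, 0 to 3 and 1 to 26 for the strain pairs in the order KF7 against NBRC1958, KF7 against NBRC2018 and NBRC2018 against NBRC1958. It gave 0 to 2, 0 to 7 and 0 to 0 for slopes in KF7, NBRC1958 and NBRC2018, and 0 to 0 for the slope difference. Members above 0 at 20 against 0 g/L numbered 38 to 58, and those below 0 at 60 against 20 g/L numbered 40 to 55; both counts, and the 57 members highest at 20 g/L in KF7, were tried under alternatives chosen after seeing the data. Direction turned in 2 named members, neither past the test. At 60 against 0 g/L, UTP21 was -0.047 without strain NBRC1958 (limma adjusted p = 0.88) and RRP7 -0.046 (0.84). With 1 array left out UTP21 ran from -0.048 (without the 60 g/L array of NBRC1958) to 0.227, and RRP7 from -0.042 (without the same array) to 0.134; it also lay just below 0 without the 0 g/L array of NBRC1958. Among named genes, calls were lost in 130 single-array fits and 108 other fits of 1121, and 3 fits gained one. The other named genes kept their direction.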
